A study of Mus musculus with 12 samples.

Results

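RNA of haematopoietic stem cells (HSC) that carried the leukaemia fusion MLL-ENL was compared with RNA of wild-type (WT) HSC after short culture. The libraries were chosen by their titles: 3 MLL-ENL and 3 WT libraries of HSC, 6 of the 12 libraries in the series, which also holds a committed precursor population. WT cells came from C57bl/6 mice and MLL-ENL cells from a strain labelled Col1a1-MLL/ENL. Cells of both groups were sorted as lineage-negative, Sca1-positive, Kit-positive, CD48-negative and CD150-positive. Cells of both groups, WT included, were then cultured for 48 h in OptiMEM with 10% FCS and 1 µg/ml doxycycline. The cytokines added were IL3 and G-CSF, each at 5 ng/ml, and SCF at 10 to 50 ng/ml. RNeasy micro columns served for RNA purification, and libraries were amplified with SMARTer chemistry for low input. All MLL-ENL libraries used here came from cells in doxycycline, so the fusion and other differences between the strains cannot be told apart. The promoter that drives the fusion, the doxycycline-responsive activator and the age of the mice are not given in the sources used here. The labels do not say whether the libraries of a group came from separate animals or cultures, so the p-values reflect the spread between libraries, part or all of which may be technical.

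MLL, encoded by Kmt2a, is a histone methyltransferase that keeps developmental genes such as the Hoxa cluster active. ENL, encoded by Mllt1, reads acetylated histones and belongs to complexes that release paused RNA polymerase II. In the fusion, the chromatin-binding N-terminal part of MLL is joined to ENL, and leukaemias with such fusions are known for high levels of Hoxa genes and their cofactor Meis1. HSC sit at the top of the blood hierarchy, divide rarely in the marrow and enter cycle in culture with cytokines.

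Gene counts per library ranged from 14526834 to 18154921 in WT HSC and from 18972772 to 23444271 in MLL-ENL HSC. Between 16621 and 17204 genes had a count in the WT libraries and between 18727 and 18807 in the MLL-ENL libraries. Mitochondrial genes took 5.40% to 5.92% of the counts in WT and 6.33% to 6.71% with MLL-ENL, and introns that overlap no exon had 3.72 to 4.10 and 4.79 to 5.96 counts per 100 gene counts. Depth and both of these measures thus moved with the genotype, and their part in the results was not tested. The first principal component held 46.5% of the variance and separated the genotypes. The second held 21.1% and set WT replicate 3, at -62.2, apart from the other WT libraries, at 31.9 and 41.5. Levels are given in CPM, counts per megacount of a library after scaling by the trimmed mean of M values (TMM), and where 3 values per group are printed they are those of replicates 1, 2 and 3.

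Exon counts of the fusion's partner genes were examined first, since they bear on the labels. Mllt1 (chromosome 17, 56892611 to 56935415, minus strand, GRCm38) had 0, 1 and 0 counts over its exons 1 to 11 in the WT libraries and 42, 24 and 28 in the MLL-ENL libraries. Its last exon had 401, 390 and 385 counts in WT and 368, 404 and 420 with MLL-ENL. Counts over the upstream exons of Mllt1 were therefore almost confined to the libraries labelled MLL-ENL, while the gene as a whole, which is dominated by its last exon, did not pass the test (log2 fold change -0.46, SE 0.20, adjusted p = 0.147). Kmt2a (chromosome 9, 44803355 to 44881296, minus strand) was at 30.2 ± 5.54 CPM in WT and 42.4 ± 3.56 CPM with MLL-ENL over its exons 1 to 8 (SD, n = 3), with no overlap between the groups. Over exons 9 to 35 its level was 9.27 ± 2.58 CPM in WT and 9.76 ± 2.58 CPM with MLL-ENL, and the groups overlapped. The last exon of Kmt2a was at 53.3 ± 2.26 and 68.6 ± 5.95 CPM. Kmt2a as a whole was called higher (log2 fold change 0.38, SE 0.11, adjusted p = 0.0362), but not when any 1 of the 6 libraries was left out (adjusted p = 0.0517 to 0.151). Col1a1, the locus named in the strain label, had at most 13 counts in a library and was not tested. Exons 1 and 2 of Gt(ROSA)26Sor, the transcript of the Rosa26 locus that is often used to place transgenes, had 75, 70 and 67 counts in WT and 4, 0 and 0 with MLL-ENL, while its exon 3 had 145, 186 and 87 against 153, 151 and 134. These exons are those of 1 transcript, with WT means of 4.76 CPM (exons 1 and 2) and 9.06 CPM (exon 3). The gene with all its exons fell from a mean of 48.9 CPM in WT to 7.86 CPM with MLL-ENL (log2 fold change -2.64, SE 0.21, adjusted p = 5.6e-06). The exon ranges, and this gene, were chosen after their values were seen.

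**Figure D1:**
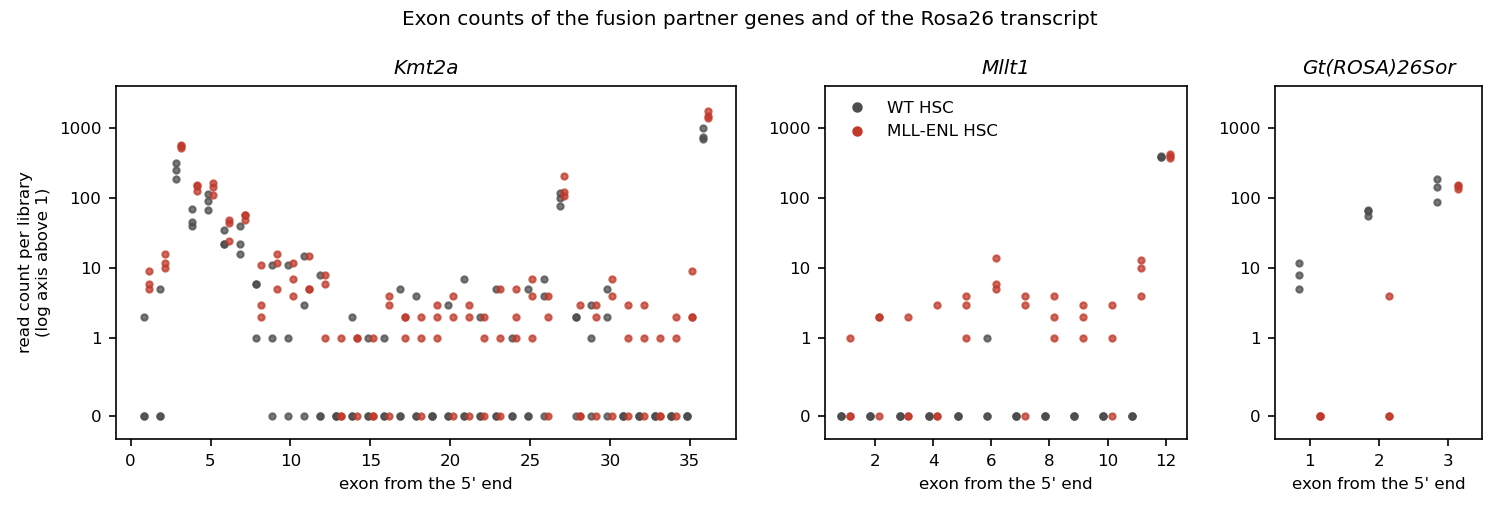
Read count of each exon (vertical axis, log above 1) against the exon's number from the 5′ end for Kmt2a, Mllt1 and Gt(ROSA)26Sor, with 1 point per library and exon. Over exons 1 to 11 of Mllt1 the WT libraries had 1 count in all and the MLL-ENL libraries 24 to 42 each, and over exons 1 and 2 of Gt(ROSA)26Sor the order was the reverse.

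Of 14183 genes tested, 1275 were called higher and 1232 lower with MLL-ENL (edgeR quasi-likelihood test, Benjamini-Hochberg adjusted p under 0.05). The called share was 17.7% in all, 8.99% higher and 8.69% lower, and these shares are the background for every list of genes below. The lists and their members were chosen with earlier results of these data known, so list shares set beside this background are descriptions and not independent support. The 3 libraries of one group all lay above the 3 of the other for 37% of the tested genes, 19.5% higher and 17.5% lower. Increases were larger than decreases: 706 of the genes called higher and 164 of those called lower differed by over 2-fold, and 144 and 26 by over 8-fold. The genes called lower were the more abundant, with a median level of 115.9 CPM against 22.9 CPM for those called higher. They were also poorer in G and C: the median GC content of the exons was 48.0% for genes called lower, 52.3% for those called higher and 49.4% for all tested. Across 5 equal classes of GC content the median log2 fold change ran from -0.037 in the lowest to 0.19 in the highest, and scaling within these classes left 1251 genes higher and 1258 lower. A fit of all 12 libraries of the series, whose spread was larger (biological coefficient of variation 0.321 against 0.256), called only 500 genes higher and 145 lower of 15704, and its counts are given in the account of each list. Genes printed as not passing the test are well-known members of the lists, chosen beside the naming rule after their values were seen, as were Procr, Esam, Prdm16, Satb1, Fos, Mcm4 and Gstt1 among the called genes. Counts also fell to between 727 and 772 higher and between 680 and 772 lower when any 1 MLL-ENL library was left out.

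**Figure D2:**
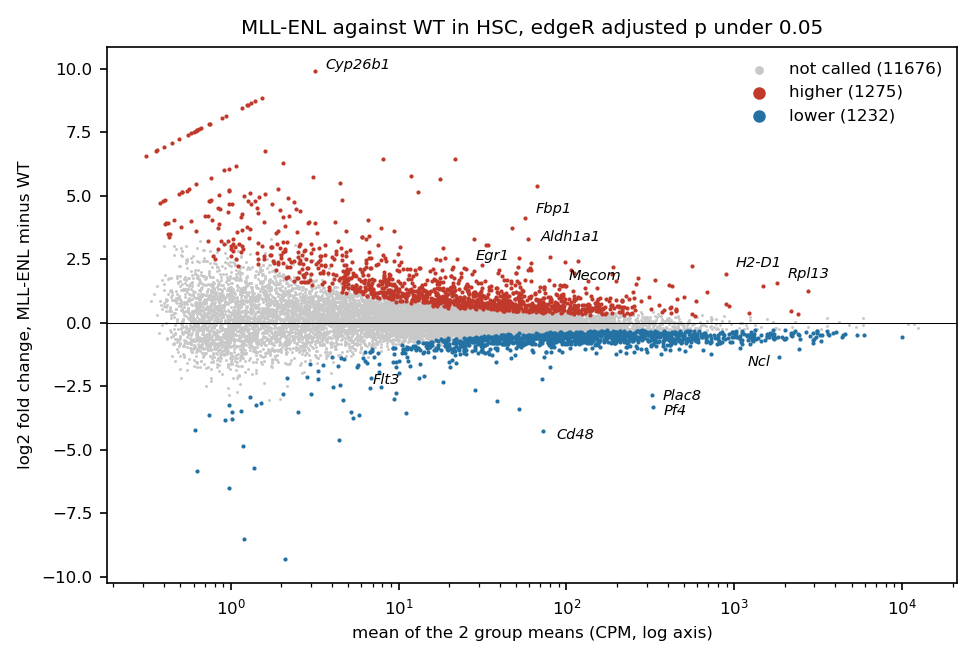
Log2 fold change of each of the 14183 tested genes (MLL-ENL minus WT) against the mean of the 2 group means in CPM on a log axis, with genes called higher in red, lower in blue and the rest in grey. Genes called lower lie mostly to the right, at high levels, and the straight lines of points at the upper left are genes with no or almost no counts in WT, whose fitted fold change depends on the prior count.

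Known targets of MLL fusions changed unevenly. Of 21 tested members of this list, 6 were higher and 2 lower, with a median log2 fold change of 0.34 against 0.038 over all genes. Among the Hoxa genes, Hoxa9 had 41.5, 33.3 and 28.7 CPM in the WT libraries and 54.5, 62.9 and 61.9 CPM in the MLL-ENL libraries (log2 fold change 0.79, SE 0.17, adjusted p = 0.0056). Its neighbour Hoxa10 rose from 18.5, 13.9 and 14.3 to 33.2, 36.2 and 39.3 CPM (log2 fold change 1.22, SE 0.19, adjusted p = 0.00107), so that every MLL-ENL library lay above every WT library for both genes. Both encode homeobox transcription factors that promote self-renewal of blood progenitors. Hoxa5, Hoxa6 and Hoxa7 of the same cluster did not pass the test, with log2 fold changes of 0.14, 1.03 and 0.45. Meis1 and Pbx3, whose proteins bind DNA together with HOX proteins, also rose. Meis1 had 168, 173 and 168 CPM in the WT libraries and 271, 253 and 259 CPM in the MLL-ENL libraries (log2 fold change 0.62, SE 0.095, adjusted p = 0.000837). Pbx3 rose from 10.6, 10.3 and 7.68 to 38.2, 37.6 and 47.3 CPM, or 4.3-fold (log2 fold change 2.1, SE 0.21, adjusted p = 3.65e-05). The zinc-finger factor Mecom (EVI1), which sustains HSC, rose from 53.4, 53.2 and 42.7 to 146, 125 and 141 CPM (log2 fold change 1.46, SE 0.13, adjusted p = 1.84e-05), and none of the WT libraries reached the MLL-ENL range for these 3 genes.

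Of the other target genes, Eya1 was called higher and Flt3 and Cdk6 lower. Flt3, the receptor of an early lymphoid and myeloid progenitor cytokine, fell from 16.1, 18.7 and 19.1 to 7.16, 4.89 and 4.41 CPM (log2 fold change -1.71, SE 0.27, adjusted p = 0.00114), and Cdk6, a G1 kinase, fell from 358, 378 and 422 to 231, 236 and 226 CPM (log2 fold change -0.74, SE 0.099, adjusted p = 0.000349). Eya1 had a log2 fold change of 1.09 (adjusted p = 0.0206), a call lost when WT replicate 2 or 3 or MLL-ENL replicate 1 or 2 was left out (adjusted p = 0.0509 to 0.109). Myb (0.081), Myc (-0.36), Bcl2 (-0.11), Mef2c (-0.16), Jmjd1c (0.39), Runx2 (0.35), Lmo2 (0.027), Tcf4 (0.058), Zeb2 (0.34) and Sox4 (-0.38, log2 fold changes) did not pass the test. Leaving out 1 library brought Hoxa7 (WT replicate 2, adjusted p = 0.0193), Sox4 (MLL-ENL replicate 3, 0.0194) and Myc (WT replicate 3, 0.0133) past the threshold. Hoxa11 had no counts in any library and 1 other member was too low to be tested. With all 12 libraries in the fit, 3 members were higher and 1 lower, and Hoxa9, Meis1, Cdk6 and Eya1 lost their calls (adjusted p = 0.0534, 0.39, 0.148 and 0.165).

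Of 7 other Hox genes tested, 3 were called higher and none lower. Hoxb5, a marker of long-term HSC, rose from 1.66, 3.26 and 7.07 to 15.3, 18.9 and 17.1 CPM (log2 fold change 2.11, SE 0.41, adjusted p = 0.00378). The others were Hoxb4 and Hoxa3 (log2 fold changes 1.21 and 1.34). Without WT replicate 2 or any 1 MLL-ENL library only Hoxb5 was called, and 5 genes were called without WT replicate 1. Genes of the MLL, ENL and elongation complexes moved little: of 20 tested, 2 were higher and 3 lower, with a median log2 fold change of -0.0039. Mllt3, the ENL paralogue AF9, rose from 86.4, 81.8 and 69.1 to 148, 157 and 143 CPM (log2 fold change 0.92, SE 0.12, adjusted p = 0.000316). Psip1, which tethers MLL to chromatin, fell from 190.5, 205 and 228 to 127, 122 and 143 CPM (log2 fold change -0.67, SE 0.11, adjusted p = 0.00145), and Dpy30, a core subunit of MLL methyltransferase complexes, fell from 462, 434 and 551 to 313, 310.3 and 316 CPM (log2 fold change -0.62, SE 0.11, adjusted p = 0.00167). Dot1l, the H3K79 methyltransferase gene, was the third lower gene (log2 fold change -0.64), a call lost without MLL-ENL replicate 1 or 3 (adjusted p = 0.0598 and 0.0811). The calls of Psip1 and Dpy30 were lost in the 12-library fit (adjusted p = 0.111 and 0.363), which called Hoxb5 and Mllt3 alone of these lists.

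Of the 4 antigens of the sort encoded by single genes, Cd48 and Ly6a differed in RNA although both groups passed the same gate before culture. Cd48 (chromosome 1, 171682009 to 171705258), which marks progenitors and on whose absence the gate rests, had 134, 166 and 114 CPM in the WT libraries and 8.03, 5.24 and 8.11 CPM in the MLL-ENL libraries. Every MLL-ENL library was far below every WT library, a 19.4-fold difference (log2 fold change -4.27, SE 0.21, adjusted p = 9.2e-08). Ly6a, which encodes Sca1, rose from 155, 175 and 188 to 254, 297 and 251 CPM (log2 fold change 0.63, SE 0.11, adjusted p = 0.00209), a call lost in the 12-library fit (adjusted p = 0.172). Kit and Slamf1, which encodes CD150, did not pass the test (log2 fold change 0.27, adjusted p = 0.19, and 0.21, adjusted p = 0.658). Cd48 was the 1 antigen gene called in the 12-library fit. In such bulk libraries, fewer cells of a type and less RNA per cell cannot be told apart.

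Genes typical of HSC were higher with MLL-ENL and genes of multipotent and lymphoid progenitors lower. Of 27 stem cell genes tested, 14 were called higher (51.9%, against 8.99% of all genes) and 1 lower, with a median log2 fold change of 0.63. Sult1a1, a sulfotransferase of quiescent HSC, had 2.84, 9.89 and 6.69 CPM in the WT libraries and 76.2, 98.5 and 89 CPM in the MLL-ENL libraries (log2 fold change 3.75, SE 0.32, adjusted p = 1.04e-05). The lectin receptor gene Clec1a rose from 6.71, 4.94 and 3.77 to 39.2, 56.5 and 56.7 CPM (log2 fold change 3.3, SE 0.25, adjusted p = 3.77e-06), and the stress-response cofactor gene Nupr1 rose from 29.5, 27.5 and 38.3 to 162, 179.7 and 154 CPM (log2 fold change 2.38, SE 0.15, adjusted p = 6.94e-07). Procr, which encodes the HSC surface protein EPCR, rose from 19.3, 23.5 and 19.5 to 69.1, 82.6 and 51.1 CPM (log2 fold change 1.7, SE 0.19, adjusted p = 0.000101). The junction protein gene Esam rose from 106, 105 and 104 to 179.5, 163 and 165 CPM (log2 fold change 0.69, SE 0.10, adjusted p = 0.000753) and Prdm16, a zinc-finger factor needed by HSC, rose from 9.41, 15.4 and 18.5 to 29.8, 30.2 and 29.1 CPM (log2 fold change 1.04, SE 0.24, adjusted p = 0.00938). The groups did not overlap for any of these 6 genes. Other factors of HSC did not pass the test: Hlf had a log2 fold change of -0.26 and Fgd5 of -0.13. Ifitm1, an interferon-inducible membrane protein gene of the list, fell from 2574, 2377 and 2973 to 1020, 1074 and 989 CPM (log2 fold change -1.36, SE 0.10, adjusted p = 3.57e-06). As Ifitm1 is abundant, the summed level of the list was lower with MLL-ENL, 3228 to 3451 against 3972 to 4472 CPM in WT, although most called members rose. When all 12 libraries were fitted, 8 members were higher and 1 lower, and Esam and Prdm16 lost their calls (adjusted p = 0.143 and 0.0755).

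None of 10 multipotent progenitor and lymphoid genes was higher and 5 were lower, with a median log2 fold change of -0.74, also with Dntt at its bound. Dntt, the polymerase of antigen receptor assembly and a mark of lymphoid priming, had 73, 51 and 61 counts in the WT libraries and none in the MLL-ENL libraries. Against the level of 3 counts per library this is at least 31.3-fold lower with MLL-ENL (adjusted p = 0.000263). Cd34, whose protein long-term HSC lack on their surface and multipotent progenitors carry, fell from 326, 342 and 267 to 186, 199.8 and 214 CPM (log2 fold change -0.64, SE 0.11, adjusted p = 0.00214). Together with Cd48 and Flt3, described above, and the chromatin organiser gene Satb1 (log2 fold change -2.2), these were the 5 lower members. Without MLL-ENL replicate 1 or 2 the call of Satb1 was lost (adjusted p = 0.063 and 0.0534), and that of Cd34 was lost in the 12-library fit (adjusted p = 0.206), where 4 members were lower. Ikzf1 and Notch1 did not pass the test, with log2 fold changes of -0.14 and -0.24, and Rag1 had no counts in any library. Without WT replicate 2, 1 member was called higher.

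**Figure D3:**
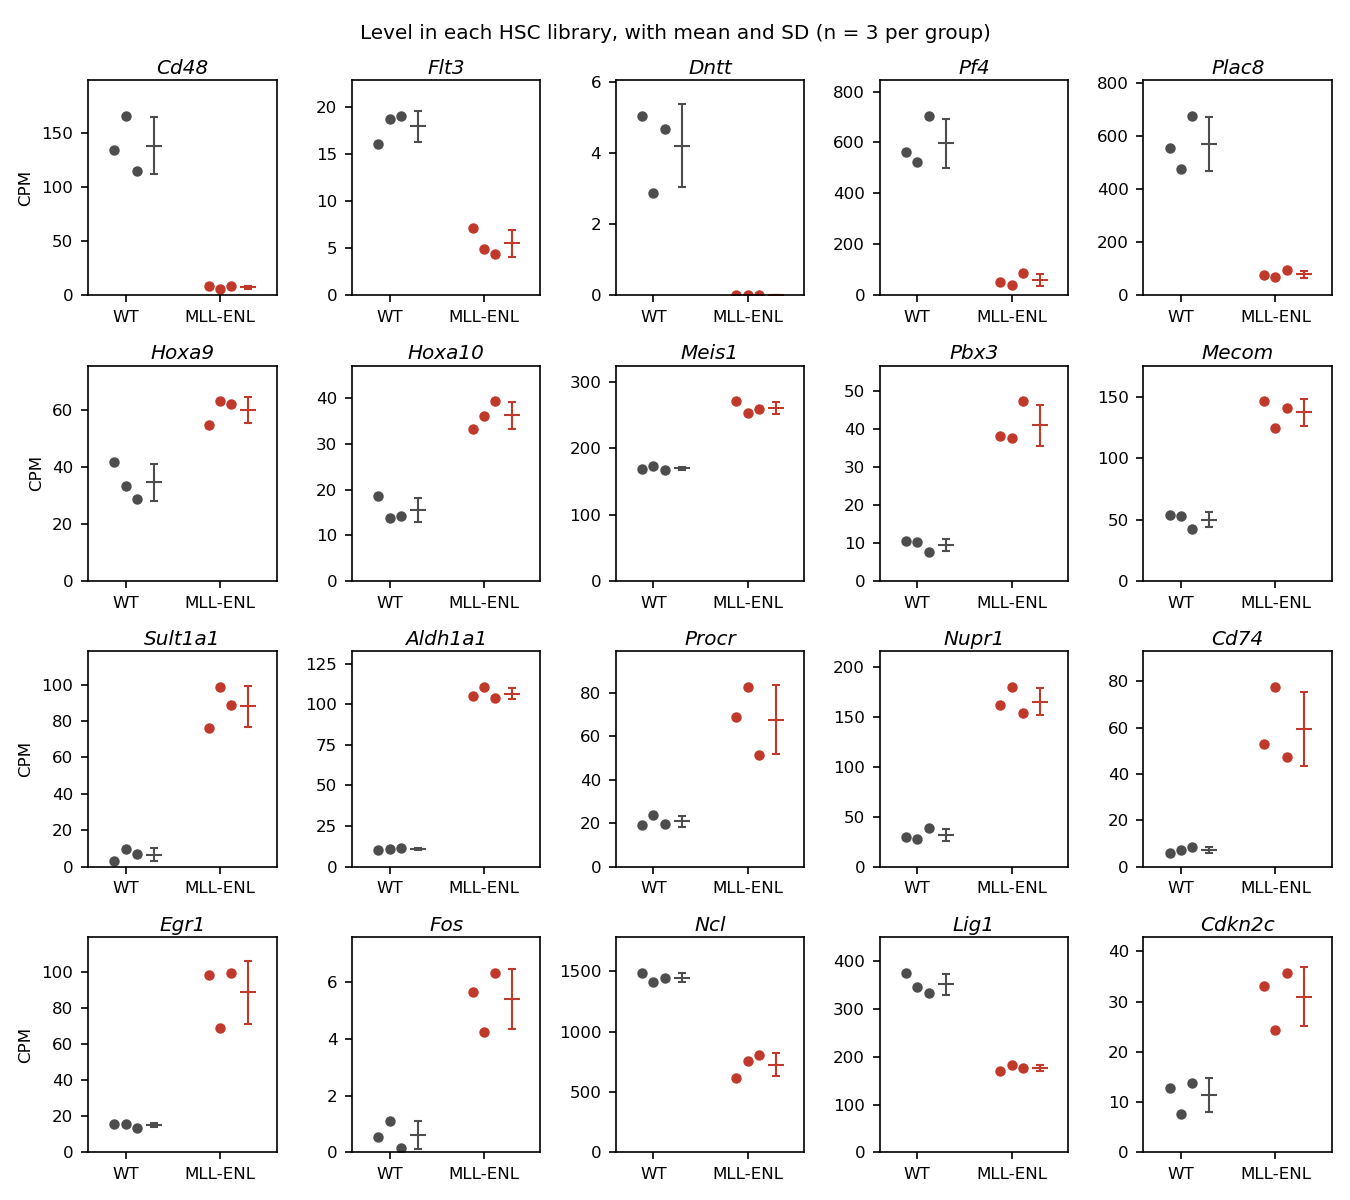
Level in CPM of 20 genes in each of the 3 WT (grey) and 3 MLL-ENL (red) HSC libraries, from 0, with the mean and SD beside the points. Cd48, Flt3, Dntt, Pf4, Plac8, Ncl and Lig1 are lower in every MLL-ENL library than in any WT library, and the other 13 genes are higher in every MLL-ENL library.

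Among 22 haematopoietic transcription factor genes, 6 were higher and none lower, with a median log2 fold change of 0.079. The largest increases belonged to inhibitors of differentiation, which block DNA binding of basic helix-loop-helix factors. Id3 rose from 22.3, 22.1 and 23.6 to 108, 142 and 159 CPM (log2 fold change 2.59, SE 0.16, adjusted p = 6.94e-07) and Id2 rose from 31.9, 35.8 and 21.1 to 97.7, 83 and 101 CPM (log2 fold change 1.66, SE 0.19, adjusted p = 8.97e-05), each without overlap. Lyl1, a basic helix-loop-helix factor of HSC, rose from 30.0, 23.7 and 31.2 to 41.9, 53.2 and 57.7 CPM (log2 fold change 0.85, SE 0.18, adjusted p = 0.00571), a call lost in the 12-library fit (adjusted p = 0.273). The other higher members were Spi1, Gfi1b and Id1 (log2 fold changes 0.82, 0.58 and 0.57). The core stem cell factors Runx1, Tal1, Erg and Gata2 did not pass the test, with log2 fold changes of -0.14, -0.17, 0.39 and 0.25, though Erg was called higher without WT replicate 3 (adjusted p = 0.0211). Only 3 members were called without WT replicate 1 or without any 1 MLL-ENL library, and 2 higher and 1 lower in the 12-library fit. Of 19 cytokine and chemokine receptor genes, 2 were higher and 4 lower. Cxcr4, the receptor that retains HSC in the marrow, fell from 22.3, 20.0 and 26.3 to 6.0, 3.4 and 6.64 CPM (log2 fold change -2.09, SE 0.29, adjusted p = 0.000433). Csf2rb, the shared signalling chain of the receptors for IL3 and GM-CSF, fell from 46.2, 45.6 and 56.4 to 28.9, 25.6 and 29.7 CPM (log2 fold change -0.81, SE 0.16, adjusted p = 0.00406). Il3ra, which encodes the specific chain of the IL3 receptor, had 0.0692, 1.4 and 0.768 CPM in the WT libraries and 4.29, 10.2 and 3.25 CPM in the MLL-ENL libraries (log2 fold change 2.95, SE 0.75, adjusted p = 0.0155), and without MLL-ENL replicate 2, its highest library, this call was lost (adjusted p = 0.138). The other calls of the list were Flt3, given above, Il1r1, which was lower (log2 fold change -1.0) and lost its call without WT replicate 2 or MLL-ENL replicate 1 or 2 (adjusted p = 0.063 to 0.102), and Ifngr1, which was higher (0.62) and lost its call without WT replicate 1 or 3 or any 1 MLL-ENL library (adjusted p = 0.0732 to 0.133). Csf3r, the receptor for G-CSF, did not pass the test (log2 fold change 0.42). Fitting all 12 libraries called 1 receptor gene higher and 2 lower, without Csf2rb (adjusted p = 0.0965).

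Marker genes of mature lineages were examined next, as the cells had been in culture with SCF, IL3 and G-CSF. Megakaryocyte and platelet genes were called in both directions, more of them lower. Pf4, a platelet chemokine (chromosome 5, 90772435 to 90773383), had 563, 524 and 705 CPM in the WT libraries and 53, 38.7 and 85.5 CPM in the MLL-ENL libraries, 10.1-fold lower (log2 fold change -3.34, SE 0.24, adjusted p = 2.14e-06). Ppbp, another platelet chemokine gene, fell from 10.5, 12.3 and 6.84 to 0.278, 1.75 and 0.223 CPM (log2 fold change -3.75, SE 0.66, adjusted p = 0.00205), and F2rl2, a thrombin receptor gene, fell from 25.3, 17.5 and 18.1 to 1.19, 3.05 and 0.98 CPM (log2 fold change -3.55, SE 0.41, adjusted p = 0.000114). The groups were far apart for each of these genes. Treml1, a platelet receptor gene, was the fourth lower member (log2 fold change -1.61). Other genes shared by megakaryocytes and HSC went the other way: Vwf, the von Willebrand factor gene, rose from 56, 52 and 50.0 to 129.7, 98.8 and 93.6 CPM (log2 fold change 1.03, SE 0.15, adjusted p = 0.000527), and Selp, which encodes P-selectin, was the other higher member (log2 fold change 0.82). Itga2b (CD41), Cd9 and Nfe2 did not pass the test, with log2 fold changes of -0.13, -0.024 and 0.077. In all, 2 of 16 megakaryocyte and platelet genes were higher and 4 lower. The summed level of the list was 1093 to 1142 CPM with MLL-ENL and 1516 to 1672 CPM in WT. Pf4 alone gave 563, 524 and 705 CPM of the WT sums and 53, 38.7 and 85.5 CPM of the MLL-ENL sums. The lower sum thus rests on Pf4 and does not describe the other members. In the 12-library fit 1 gene of the list was higher and 3 lower, without Selp and Treml1 (adjusted p = 0.129 and 0.0534).

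Of 10 erythroid genes, 2 were higher and 2 lower. The adult globin gene Hbb-bt fell from 129, 98.8 and 123 to 24.2, 23.7 and 27 CPM (log2 fold change -2.23, SE 0.15, adjusted p = 1.06e-06), and Tfrc, the transferrin receptor that supplies iron to growing cells, fell from 51.6, 56.2 and 46 to 22.7, 12.2 and 28.2 CPM (log2 fold change -1.28, SE 0.25, adjusted p = 0.00368). Gata1 and Klf1, which specify erythroid cells, did not pass the test (log2 fold changes 0.051 and 1.46). The most abundant erythroid gene was the carbonic anhydrase gene Car2, from 1814, 2007 and 1682 to 2594, 2556 and 2440 CPM (log2 fold change 0.46, adjusted p = 0.0047). The summed level of the list was higher with MLL-ENL, 2669 to 2818 against 1976 to 2326 CPM. Car2 made up most of this sum in every library, so the sum follows Car2 and does not describe the other members. The factor gene Gfi1b was the other higher member, and its call was lost without WT replicate 1 or 3 or any 1 MLL-ENL library (adjusted p = 0.0546 to 0.149). With all 12 libraries in the fit, the call of Car2 was lost (adjusted p = 0.583) and 0 members were higher and 2 lower. Myeloid markers differed between lists. Of 13 granulocyte genes, 2 were lower and none higher, with a median log2 fold change of -0.47. Neither call held when WT replicate 3 or any 1 MLL-ENL library was left out (adjusted p = 0.063 to 0.158). The most abundant granulocyte gene, the neutrophil protease gene Prtn3, had 279, 294 and 365 CPM in the WT libraries and 245, 248 and 217 CPM in the MLL-ENL libraries, and Mpo, myeloperoxidase, had 30.6, 64.8 and 68.2 CPM in the WT libraries and 28.9, 36.3 and 28 CPM in the MLL-ENL libraries. The summed level of the granulocyte list was 326 to 368 CPM with MLL-ENL and 384 to 558 CPM in WT. Prtn3 made up most of this sum in every library, so the sum does not describe the other members. With genes that overlap another left out, Prtn3 and Mpo among them, none of the 11 granulocyte genes still tested was called. Of 8 monocyte and macrophage genes 2 were higher and none lower, with a median log2 fold change of 0.38. Apoe, an apolipoprotein gene that macrophages express, rose from 9.34, 6.8 and 7.3 to 26.2, 37.1 and 37.2 CPM (log2 fold change 2.1, SE 0.23, adjusted p = 8.53e-05), with the summed level of that list at 350.4 to 421 CPM against 262 to 298 CPM. The other was the lysozyme gene Lyz2 (log2 fold change 0.35), whose call was lost without WT replicate 2 or 3 or any 1 MLL-ENL library (adjusted p = 0.0683 to 0.192). With all 12 libraries fitted together, the test called 1 granulocyte gene lower and Apoe higher. C1qa had no counts in any library, and 9 of the 17 macrophage genes, C1qa among them, were too low to be tested.

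Stromal and endothelial genes were low in all libraries but higher with MLL-ENL, with a summed level of 44 to 56.4 CPM against 12.7 to 22 CPM. Of 6 tested, 4 were higher and none lower. Col1a2, a collagen gene, rose from 1.8, 1.35 and 0.538 to 5.69, 11 and 8.78 CPM (log2 fold change 2.77, SE 0.49, adjusted p = 0.00195), and Bgn, a matrix proteoglycan gene, rose from 2.01, 5.17 and 3.15 to 13.6, 20.2 and 16.1 CPM (log2 fold change 2.26, SE 0.35, adjusted p = 0.001). Sparc and Lepr were the other higher members (log2 fold changes 1.47 and 3.73). Dcn and Lum, defining genes of fibroblasts, had no counts in any library, and 6 of 12 members were too low to be tested. When any 1 MLL-ENL library was left out, 2 members were called, and the 12-library fit called 4. The part of other cells in this result was not tested. Cd3e, Ms4a1 and Ncr1, markers of mature T, B and NK cells, had no counts in any library. The 1 tested gene of that list, the granule protein gene Nkg7, which is also found in progenitors, fell from 107, 109.6 and 154 to 36.6, 31.7 and 40.8 CPM (log2 fold change -1.76, SE 0.16, adjusted p = 2.34e-05). Of 5 mast cell, basophil and eosinophil genes, Fcer1a was lower (log2 fold change -2.93, adjusted p = 0.0135), and the list had a summed level of 9.89 to 13.5 CPM in WT and 6.44 to 16.9 CPM with MLL-ENL. Without WT replicate 1 or any 1 MLL-ENL library this call was lost (adjusted p = 0.0523 to 0.0756), while the 12-library fit kept it and that of Nkg7.

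Immediate early genes, which respond within minutes to growth factor signals, were higher with MLL-ENL. Of 14 tested, 7 were higher and none lower, with a median log2 fold change of 1.25, and the summed level of the list was 356 to 397 CPM against 178 to 191 CPM. Egr1, a zinc-finger factor, rose from 15.8, 15.8 and 13.7 to 98.3, 68.8 and 99.7 CPM (log2 fold change 2.56, SE 0.18, adjusted p = 1.97e-06). Fos and Junb encode subunits of the AP-1 transcription factor. Fos was low in both groups but rose from 0.554, 1.12 and 0.154 to 5.65, 4.25 and 6.33 CPM (log2 fold change 3.09, SE 0.62, adjusted p = 0.00424), and Junb rose from 3.05, 2.7 and 2.69 to 8.55, 9.79 and 12.7 CPM (log2 fold change 1.88, SE 0.33, adjusted p = 0.00204). The antiproliferative gene Btg2 rose from 13.7, 12.5 and 14.1 to 31.3, 41.9 and 36.8 CPM (log2 fold change 1.45, SE 0.19, adjusted p = 0.000352), and Zfp36, whose product speeds the decay of cytokine mRNAs, rose from 16.3, 14.3 and 15.5 to 32, 37 and 39.5 CPM (log2 fold change 1.23, SE 0.18, adjusted p = 0.000738). Jun itself did not pass the test (log2 fold change 1.41). When all 12 libraries were fitted, 5 members were higher. The palindrome TGACGTCA, a CREB site, lay in the 250 bases before the start of Btg2 and Dusp1, 2 of 12 members with a promoter sequence (16.7%, against 1.77% of all 27025 genes), and the CArG box, the site of serum response factor, in 1 of 12 (8.33%, against 1.62%).

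Other signalling outputs had fewer calls or calls in both directions. The 11 ERK feedback genes had a median log2 fold change of 0.50, with a positive value in 9 of them. Their summed level was 118 to 135 CPM with MLL-ENL and 98.7 to 105 CPM in WT. Of these genes, 2 were called higher and none lower. One of them, the ETS factor gene Etv4, had at most 1 count in a WT library and rose from 0, 0.0562 and 0 to 1.27, 1.5 and 2.63 CPM. The other was the phosphatase gene Dusp6 (log2 fold change 0.68), a call lost without WT replicate 1 or 2 or MLL-ENL replicate 1 or 3 (adjusted p = 0.0524 to 0.0892), and in the 12-library fit (adjusted p = 0.431), which called 1 member, Etv4. The list of SOCS and PIM cytokine feedback genes, which are induced by STAT5, also holds the cytokine gene Osm. Of its 8 genes, 2 were higher and 2 lower. Socs2 fell from 118, 135 and 123 to 75, 79.8 and 82.3 CPM (log2 fold change -0.67, SE 0.12, adjusted p = 0.00175) and Pim1 fell from 43.9, 32 and 37.2 to 22.5, 19.2 and 22.6 CPM (log2 fold change -0.81, SE 0.18, adjusted p = 0.0083), and the 12-library fit called neither (adjusted p = 0.0616 and 0.102). Pim2 and Osm were the higher ones (log2 fold changes 0.68 and 1.43), and both calls were lost without MLL-ENL replicate 2 (adjusted p = 0.0732 and 0.163), that of Osm also without WT replicate 1 or MLL-ENL replicate 1 (adjusted p = 0.0662 and 0.0579), and the 12-library fit called Osm alone of this list. The integrated stress response, in which ATF4 induces amino acid supply genes, was divided, with 5 of 16 genes higher and 3 lower. The pseudokinase gene Trib3 rose from 2.15, 2.3 and 0.538 to 8.59, 15.1 and 11.3 CPM (log2 fold change 2.78, SE 0.47, adjusted p = 0.00158) and the asparagine synthetase gene Asns rose from 60.0, 58.9 and 34.8 to 86, 104 and 122 CPM (log2 fold change 1.02, SE 0.20, adjusted p = 0.00362). The amino acid transporter gene Slc7a5 fell from 30.1, 28.7 and 26.9 to 15.7, 12.6 and 9.98 CPM (log2 fold change -1.16, SE 0.22, adjusted p = 0.00298). Nupr1, given above, Sesn2 and Ddit4 were also higher (log2 fold changes of the last pair 1.37 and 1.74), and Phgdh and Psat1, of serine synthesis, were also lower (-0.54 and -0.46). Atf4 and Ddit3 themselves did not pass the test (log2 fold changes -0.097 and 0.098). Only 3 members were higher without WT replicate 2 or 3 or any 1 MLL-ENL library, 1 was lower without MLL-ENL replicate 1 or 3, and the 12-library fit called 3 higher and 1 lower, without Asns (adjusted p = 0.185). The C/EBP-ATF composite site TGATGCAA lay before Nupr1 and Slc7a11, 2 of 15 members with a promoter sequence (13.3%, against 0.918% of all genes).

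Genes that build ribosomes were lower with MLL-ENL. Of 28 MYC and ribosome biogenesis genes, none was higher and 20 were lower (71.4%, against 8.69% of all genes), with a median log2 fold change of -0.71. The summed level of the list was 9500.4 to 9824 CPM in the WT libraries and 5697 to 6084 CPM in the MLL-ENL libraries, with no overlap. Ncl, the major nucleolar protein nucleolin (chromosome 1, 86344719 to 86359400), had 1486, 1409 and 1440 CPM in the WT libraries and 617, 761 and 804 CPM in the MLL-ENL libraries (log2 fold change -0.99, SE 0.11, adjusted p = 7.72e-05). Srm, spermidine synthase, fell from 97.5, 95.9 and 121 to 46, 41.6 and 36.9 CPM (log2 fold change -1.34, SE 0.14, adjusted p = 7.41e-05), and Gnl3, a nucleolar GTPase gene, fell from 309, 291 and 345 to 160.0, 171 and 166 CPM (log2 fold change -0.93, SE 0.10, adjusted p = 7.89e-05). Npm1, the nucleolar chaperone nucleophosmin, fell from 3923, 4046 and 4301 to 2415, 2546 and 2513 CPM (log2 fold change -0.72, SE 0.088, adjusted p = 0.000183). Myc itself, the transcription factor that drives many of these genes, had 139, 167 and 118 CPM in the WT libraries and 107, 109 and 114 CPM in the MLL-ENL libraries and did not pass the test (log2 fold change -0.36, adjusted p = 0.0766). The MYC site CACGTG lay in the promoter of 1 of 21 members with a sequence (4.76%, against 6.86% of all genes). With library size alone in place of TMM scaling, 16 members were lower and 1 higher. In the 12-library fit 5 members were lower and Npm1 lost its call (adjusted p = 0.232).

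Cytosolic ribosomal protein genes were lower nearly throughout. Of 60 tested, 53 were lower and 1 higher, with a median log2 fold change of -0.50, and their summed level was 103812 to 106363 CPM with MLL-ENL against 124426 to 163881 CPM in WT. The WT libraries thus varied more among themselves than the MLL-ENL libraries did. Rpl29 fell from 651, 501 and 679 to 336, 361 and 346 CPM (log2 fold change -0.81, SE 0.12, adjusted p = 0.000584), and Rps15 fell from 829, 725 and 1017 to 525, 513 and 516 CPM (log2 fold change -0.73, SE 0.12, adjusted p = 0.00121). Rpl13 went the other way, from 684, 969.5 and 1065 to 2458, 2841 and 2822 CPM, a 2.99-fold increase (log2 fold change 1.58, SE 0.14, adjusted p = 1.84e-05). With library size alone in place of TMM scaling, 39 members were lower and the median log2 fold change was -0.32. Without MLL-ENL replicate 1 only 27 members were lower and without MLL-ENL replicate 2 only 33, and the 12-library fit called none of the list lower and Rpl13 higher. Reads of ribosomal protein genes can be shared with their many pseudogenes, so these values are uncertain.

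Genes of DNA replication were lower with MLL-ENL. Of 26 tested, none was higher and 20 were lower (76.9%), with a median log2 fold change of -0.54. Their summed level was 4433 to 4805 CPM in WT and 3158 to 3296 CPM with MLL-ENL. Lig1, the ligase that joins Okazaki fragments, had 375, 346 and 333 CPM in the WT libraries and 171, 183 and 177 CPM in the MLL-ENL libraries (log2 fold change -0.99, SE 0.097, adjusted p = 3.38e-05). Pcna, the sliding clamp of the replicative polymerases, fell from 329, 336 and 304 to 222, 208 and 190.0 CPM (log2 fold change -0.64, SE 0.10, adjusted p = 0.000943), and Mcm4, a subunit of the replicative helicase, fell from 171, 183 and 156 to 110.2, 111 and 106 CPM (log2 fold change -0.64, SE 0.11, adjusted p = 0.00149). Uhrf1, which recruits the maintenance DNA methyltransferase to new DNA, fell from 169.8, 156 and 160.1 to 105, 90.2 and 93.1 CPM (log2 fold change -0.76, SE 0.11, adjusted p = 0.000623). The groups were apart for all 4 genes. With library size alone in place of TMM scaling, 10 members were lower, and the 12-library fit called 1, without any of these 4 (adjusted p = 0.0638, 0.21, 0.392 and 0.181).

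Mitosis genes moved less evenly: 10 of 28 were lower and none higher, with a median log2 fold change of -0.36. Ccna2, the cyclin of S phase and early mitosis, fell from 159.7, 169.8 and 179.8 to 95.7, 92.3 and 113 CPM (log2 fold change -0.76, SE 0.12, adjusted p = 0.000823). Cdk1, the kinase that starts mitosis, had 266, 257 and 297 CPM in the WT libraries and 157, 198 and 169 CPM in the MLL-ENL libraries (log2 fold change -0.64, SE 0.11, adjusted p = 0.00204). Top2a, which untangles sister chromatids, fell from 584, 561 and 568 to 366, 414 and 433 CPM (log2 fold change -0.50, SE 0.097, adjusted p = 0.00361), and Birc5 (survivin) fell from 251, 229.8 and 331 to 171, 186 and 143 CPM (log2 fold change -0.70, SE 0.14, adjusted p = 0.0049). Ccnb2 and Aurka, which are also mitotic, did not pass the test (log2 fold changes 0.13 and 0.25). Without MLL-ENL replicate 1, or with library size alone, 5 members were lower, and the 12-library fit called none (adjusted p = 0.0747, 0.256, 0.359 and 0.259 for the genes named).

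Promoters of mitosis genes are known for repeated CCAAT boxes, bound by NF-Y, and for the cell cycle homology element TTTGAA. In the 250 bases before the gene start, CCAAT on either strand was found in 22 of 24 mitosis genes with a RefSeq promoter (91.7%, against 37.5% of 27025 genes), and TTTGAA in 9 of 24 (37.5%, against 18.3%). The promoters of Cdk1 and Top2a are shown because both genes fell and hold both motifs, and they were chosen after the matches were seen. Ccnb2, which did not pass the test, also holds both motifs, and a link between the motifs and the change in level was not tested. Capitals mark CCAAT or its reverse complement ATTGG and TTTGAA or its reverse complement TTCAAA, on the gene's strand, from GRCm38.p6 at chr10:69352913-69353162 (Cdk1) and chr11:99024190-99024439 (Top2a), both minus strand. The search used letters alone, and binding was not measured.
Cdk1: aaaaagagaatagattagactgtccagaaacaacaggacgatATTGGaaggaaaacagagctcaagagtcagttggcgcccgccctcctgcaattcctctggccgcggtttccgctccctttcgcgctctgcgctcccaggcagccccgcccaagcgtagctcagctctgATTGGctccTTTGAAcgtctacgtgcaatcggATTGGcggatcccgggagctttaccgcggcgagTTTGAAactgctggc
Top2a: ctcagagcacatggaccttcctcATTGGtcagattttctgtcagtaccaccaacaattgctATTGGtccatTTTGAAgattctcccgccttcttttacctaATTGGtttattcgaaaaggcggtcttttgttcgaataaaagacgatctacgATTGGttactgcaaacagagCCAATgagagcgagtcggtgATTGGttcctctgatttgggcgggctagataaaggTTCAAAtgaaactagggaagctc
Cdk1 had 5 matches and Top2a 8.

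Several genes that restrain entry into S phase were higher. Of 8 CDK inhibitor and retinoblastoma family genes, 4 were higher and none lower, with a median log2 fold change of 0.59. Cdkn2c (p18), an inhibitor of CDK4 and CDK6, had 12.7, 7.59 and 13.9 CPM in the WT libraries and 33, 24.3 and 35.7 CPM in the MLL-ENL libraries (log2 fold change 1.45, SE 0.26, adjusted p = 0.0021). Rb1, the retinoblastoma protein gene, rose from 24.4, 31.7 and 27 to 64.4, 55 and 54.8 CPM (log2 fold change 1.07, SE 0.16, adjusted p = 0.000814). Cdkn1c (p57), which keeps HSC quiescent, rose from 10.9, 10.3 and 16.9 to 34.7, 27.1 and 25 CPM (log2 fold change 1.19, SE 0.24, adjusted p = 0.00455), and Cdkn1b (p27) rose from 26.2, 26.6 and 27.4 to 44.7, 39.6 and 52.5 CPM (log2 fold change 0.77, SE 0.17, adjusted p = 0.00641). Cdkn1a (p21) did not pass the test, from 33.6, 28.9 and 52.1 to 28.4, 45.1 and 32.9 CPM, and Cdkn2a had no counts in any library. Across the 12 libraries, the fit called 2 members, without Cdkn1c and Cdkn1b (adjusted p = 0.0628 and 0.0761). Of 10 G1 cyclin, CDK and E2F genes, 2 were higher and 2 lower: Ccnd1 (cyclin D1) rose from 16.1, 17.9 and 20.0 to 33.7, 39.9 and 43.8 CPM (log2 fold change 1.12, SE 0.19, adjusted p = 0.00132), while Cdk6 fell, as given above. Ccnd3 was also higher (log2 fold change 0.47) and Ccne2 also lower (-0.76), and both calls were lost without WT replicate 1 or MLL-ENL replicate 2 (adjusted p = 0.0567 to 0.0932), that of Ccne2 also without WT replicate 2 or MLL-ENL replicate 1 (adjusted p = 0.0938 and 0.0797). Cdk4 and Ccnd2 did not pass the test (log2 fold changes -0.16 and 0.081). The fit of 12 libraries called 1 member of this list, Ccnd1.

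Of 20 p53 target genes, 4 were higher and none lower. The proapoptotic gene Bax rose from 105, 101 and 140.2 to 204, 198 and 173 CPM (log2 fold change 0.73, SE 0.14, adjusted p = 0.00265) and the stress sensor gene Sesn1 rose from 53.8, 52.7 and 45.7 to 85.6, 75.9 and 76.1 CPM (log2 fold change 0.64, SE 0.13, adjusted p = 0.00531). Btg2, given above, and Rrm2b (log2 fold change 1.12) were the other higher members, and the call of Rrm2b was lost without WT replicate 2 or 3 or MLL-ENL replicate 1 or 3 (adjusted p = 0.121 to 0.233). Cdkn1a and Mdm2, standard targets of p53, did not pass the test (log2 fold changes -0.11 and -0.046). Of 13 BCL2 family genes, 3 were higher and none lower, and both arms were among them: the antiapoptotic gene Bcl2l1 (BCL-XL) rose from 13.9, 19 and 11.7 to 32, 37.5 and 41.2 CPM (log2 fold change 1.31, SE 0.22, adjusted p = 0.00139), beside Bax and the proapoptotic gene Bak1 (log2 fold change 1.41), whose call was lost without any 1 MLL-ENL library (adjusted p = 0.0546 to 0.0706). Bcl2 and Mcl1 did not pass the test (log2 fold changes -0.11 and -0.0041). Without WT replicate 2 a p53 target gene, and without WT replicate 3 a BCL2 family gene, was called lower. The 12-library fit called 1 member of each list and lost Bax, Sesn1 and Bcl2l1 (adjusted p = 0.148, 0.433 and 0.121).

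Interferon response genes were higher in part. Of 20 tested, 9 were higher (45.0%, against 8.99% of all genes) and 1 lower, with a median log2 fold change of 0.48. Isg15, a ubiquitin-like protein gene, rose from 5.61, 3.88 and 2.46 to 16.9, 17.7 and 14.1 CPM (log2 fold change 2.02, SE 0.32, adjusted p = 0.00112), and Irf7, a transcription factor of the type I interferon response, rose from 2.91, 3.54 and 3.38 to 18.3, 13.2 and 7.89 CPM (log2 fold change 2.0, SE 0.35, adjusted p = 0.00207). Rsad2 (viperin), an antiviral enzyme, rose from 4.08, 2.58 and 3.54 to 12.6, 11.2 and 9.0 CPM (log2 fold change 1.69, SE 0.33, adjusted p = 0.00355). The abundant membrane protein gene Ifitm3 fell from 1074, 1047 and 1188 to 738, 791 and 652 CPM (log2 fold change -0.60, SE 0.10, adjusted p = 0.00153), as Ifitm1 did. The summed level of the list was thus not higher with MLL-ENL, at 1297 to 1546 CPM against 1531 to 1729 CPM in WT. Without MLL-ENL replicate 2, 3 members were higher, and the 12-library fit called 2 higher and none lower. A core of the sites for interferon-activated factors, GAAA and GAAA with 2 bases between them, was found on either strand in 6 of 15 interferon genes with a promoter sequence (40%, against 3.46% of all genes). Those of Isg15 and Rsad2 are shown because both genes rose and hold the element (chosen after the matches were seen), with the element, on either strand, in capitals (GRCm38.p6, chr4:156200819-156201068 and chr12:26456453-26456702, both minus strand).
Isg15: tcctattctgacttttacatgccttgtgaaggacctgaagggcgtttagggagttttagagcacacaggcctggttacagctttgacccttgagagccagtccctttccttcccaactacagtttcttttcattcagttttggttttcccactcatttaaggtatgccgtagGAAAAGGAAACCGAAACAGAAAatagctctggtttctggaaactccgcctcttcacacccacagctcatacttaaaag
Rsad2: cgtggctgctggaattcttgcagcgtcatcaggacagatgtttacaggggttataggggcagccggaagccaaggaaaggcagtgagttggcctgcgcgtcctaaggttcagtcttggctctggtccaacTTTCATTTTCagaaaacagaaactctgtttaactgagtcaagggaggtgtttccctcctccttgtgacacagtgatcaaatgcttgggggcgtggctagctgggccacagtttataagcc
Isg15 had 3 overlapping matches and Rsad2 1.

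Antigen presentation genes rose with MLL-ENL. Of 5 tested genes of the MHC class II and dendritic cell list, 4 were higher and none lower, with a summed level of 103 to 144 CPM against 18 to 27.8 CPM in WT. Cd74, the invariant chain of MHC class II, had 5.74, 7.02 and 8.45 CPM in the WT libraries and 52.8, 77.5 and 47.5 CPM in the MLL-ENL libraries (log2 fold change 3.07, SE 0.24, adjusted p = 4.06e-06). H2-Aa rose from 0.484, 2.53 and 0.461 to 12.3, 13.8 and 8.96 CPM (log2 fold change 3.28, SE 0.56, adjusted p = 0.00168) and H2-Ab1 rose from 8.37, 10.6 and 13.1 to 33.5, 35.1 and 26.4 CPM (log2 fold change 1.57, SE 0.23, adjusted p = 0.000623). H2-Eb1 was the fourth (log2 fold change 2.72), a call lost without MLL-ENL replicate 1 or 3 (adjusted p = 0.0553 and 0.0549). Ciita, the master regulator of these genes, had 0.969, 0 and 0.231 CPM in the WT libraries and 1.83, 2.1 and 2.27 CPM in the MLL-ENL libraries and did not pass the test (adjusted p = 0.114), though it did without WT replicate 1 (adjusted p = 0.0306). The 12-library fit also called 4 members. In MHC class I presentation, 4 of 9 genes were higher and none lower. H2-D1 rose from 335, 407 and 379 to 1335, 1496 and 1368 CPM, or 3.74-fold (log2 fold change 1.9, SE 0.10, adjusted p = 2.24e-07), and H2-K1 rose from 668, 633 and 708 to 1111, 1150 and 1046 CPM (log2 fold change 0.72, SE 0.092, adjusted p = 0.000266). The peptide transporter gene Tap2 rose from 33.4, 39.4 and 36 to 79.2, 78.4 and 69.6 CPM (log2 fold change 1.06, SE 0.14, adjusted p = 0.000318), and its partner Tapbp was the fourth (log2 fold change 0.41), a call lost without WT replicate 2 or any 1 MLL-ENL library (adjusted p = 0.0642 to 0.103), whereas B2m, the shared light chain, did not pass the test (log2 fold change 0.19, adjusted p = 0.155). With all 12 libraries in the fit, H2-D1 alone of these class I genes was called, and H2-K1 and Tap2 lost their calls (adjusted p = 0.12 and 0.090). H2 genes are polymorphic and near-identical in part, and reads can be assigned to the wrong copy. The H2 genes and Tap2 lie together on chromosome 17, and of 72 genes tested between the start of H2-K1 and the end of H2-D1 (33996017 to 35267499), a span chosen after these values were seen, 16 were called higher and 4 lower.

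**Figure D4:**
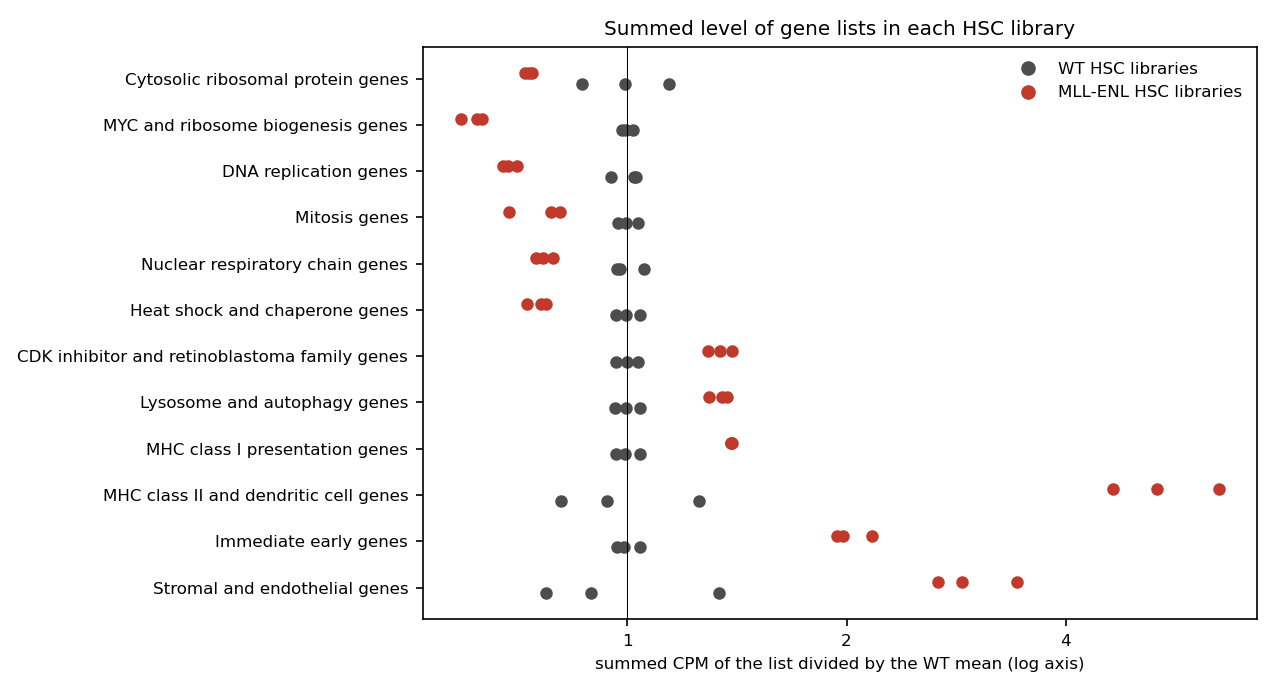
Summed CPM of the genes of 12 lists in each library, divided by the WT mean of that list, on a log axis, with WT libraries in grey and MLL-ENL libraries in red. The 6 lists at the top lie below the WT range in every MLL-ENL library and the 6 at the bottom above it, with MHC class II genes the farthest at 103 to 144 CPM against 18 to 27.8 CPM. These 12 lists were picked from all those examined. Sums of others, such as the MLL fusion targets and the glycolysis and pentose phosphate genes, overlapped between the groups.

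Respiratory chain genes of the nucleus and of mitochondria did not move together. Of 24 nuclear genes, 14 were lower and 1 higher, with a median log2 fold change of -0.37. Cycs, cytochrome c, had 378, 370.3 and 445 CPM in the WT libraries and 192, 188 and 205 CPM in the MLL-ENL libraries (log2 fold change -1.03, SE 0.10, adjusted p = 4.4e-05), and Cox6c, a subunit of complex IV, fell from 1038, 875 and 1145 to 556, 537 and 605 CPM (log2 fold change -0.85, SE 0.11, adjusted p = 0.000309). Atp5d, a subunit of ATP synthase and the higher gene, rose from 110.3, 178 and 166 to 263, 309 and 255 CPM (log2 fold change 0.86, SE 0.16, adjusted p = 0.00247). Of 12 genes encoded in mitochondrial DNA, 3 were higher and none lower. The one with the smallest p was mt-Co1, which rose from 1677, 1518 and 1738 to 3544, 4698 and 3398 CPM (log2 fold change 1.24, SE 0.12, adjusted p = 3.97e-05), the others were mt-Nd5 and mt-Nd4 (log2 fold changes 0.37 and 0.32), while mt-Cytb did not pass the test (log2 fold change 0.20, adjusted p = 0.193), though it did without WT replicate 3 (adjusted p = 0.0379). Without 1 MLL-ENL library 7 to 9 nuclear genes were lower, and with library size alone 7. Without WT replicate 1 or any 1 MLL-ENL library, 1 mitochondrially encoded gene was called, and the calls of mt-Nd5 and mt-Nd4 were lost (adjusted p = 0.0535 to 0.207). Fitting all 12 libraries called none of the nuclear genes (adjusted p = 0.119, 0.241 and 0.233 for those named) and mt-Co1 alone of the mitochondrial ones.

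Of 17 glycolysis and pentose phosphate genes, 1 was higher and 2 lower, and the higher one, the transketolase gene Tkt of the pentose phosphate pathway, rose from 169.8, 172 and 143 to 506, 509.9 and 523 CPM (log2 fold change 1.66, SE 0.10, adjusted p = 6.94e-07). The lower ones were Gapdh and Tpi1 (log2 fold changes -0.37 and -0.42), whose calls were both lost without WT replicate 1, MLL-ENL replicate 1 or MLL-ENL replicate 3 (adjusted p = 0.0611 to 0.0888). The fit of 12 libraries called Tkt alone of this list. Of 16 heat shock and chaperone genes, 6 were lower and 1 higher. The mitochondrial cochaperonin gene Hspe1 fell from 848, 749.5 and 1030 to 430.3, 415 and 404 CPM (log2 fold change -1.07, SE 0.12, adjusted p = 7.58e-05) and the cytosolic chaperone gene Hsp90aa1 fell from 1335, 1250 and 1372 to 832, 819 and 861 CPM (log2 fold change -0.66, SE 0.089, adjusted p = 0.000382). The cochaperone gene Dnajb1 was the higher one (log2 fold change 0.76). Without WT replicate 1 or MLL-ENL replicate 1 or 3, and with library size alone, 3 chaperone genes were lower, and the 12-library fit called none (adjusted p = 0.127, 0.188 and 0.0788 for those named).

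Detoxification genes held some of the largest increases. Of 20 tested, 7 were higher and 3 lower, with a median log2 fold change of 0.13. Aldh1a1, a retinaldehyde dehydrogenase gene (chromosome 19, 20492715 to 20643465), had 10.4, 10.8 and 11.3 CPM in the WT libraries and 105, 110.5 and 104 CPM in the MLL-ENL libraries, 9.85-fold more (log2 fold change 3.3, SE 0.14, adjusted p = 9.2e-08). Aldh2, which clears acetaldehyde, rose from 142, 121 and 191 to 328, 359 and 356 CPM (log2 fold change 1.2, SE 0.14, adjusted p = 0.000167), and the glutathione transferase gene Gstt1 rose from 12.5, 16.9 and 11.9 to 33, 27.5 and 27.7 CPM (log2 fold change 1.09, SE 0.21, adjusted p = 0.00351). Hmox1, haem oxygenase, rose from 1.45, 0.112 and 1.92 to 8.63, 19.5 and 8.51 CPM (log2 fold change 3.43, SE 0.65, adjusted p = 0.00314). The peroxidase gene Prdx1 fell from 1794, 1707 and 1872 to 1280, 1405 and 1299 CPM (log2 fold change -0.43, adjusted p = 0.00539), the other lower members were Abcb1b and Gclc (log2 fold changes -0.83 and -0.91), and Gpx1 did not pass the test (log2 fold change 0.044). Without MLL-ENL replicate 2 only 1 member was lower. With all 12 libraries fitted together, the test called 6 higher and none lower, without Prdx1 (adjusted p = 0.497).

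Of 18 polycomb and DNA methylation genes, 6 were lower and 1 higher. Dnmt3b, a de novo DNA methyltransferase gene, fell from 101, 113 and 99.6 to 51.9, 47 and 41.5 CPM (log2 fold change -1.16, SE 0.13, adjusted p = 0.000111), and Dnmt1, the maintenance enzyme, fell from 262, 264 and 259 to 161, 163 and 187 CPM (log2 fold change -0.62, SE 0.10, adjusted p = 0.00122). Suz12, a core subunit of polycomb repressive complex 2, fell from 94.3, 80.9 and 93.4 to 51.7, 44 and 53.6 CPM (log2 fold change -0.85, SE 0.14, adjusted p = 0.00115). Ezh1, the paralogue of its catalytic subunit, was the higher gene (log2 fold change 0.60), a call lost when any 1 of the 6 libraries was left out (adjusted p = 0.0762 to 0.157). Ezh2, the catalytic subunit, and the genes Dnmt3a and Tet2, which are often mutated in leukaemia, did not pass the test (log2 fold changes -0.27, -0.14 and -0.49), though Ezh2 did without WT replicate 3 (adjusted p = 0.0433). Across the 12 libraries, the fit called Dnmt3b alone, and lost Dnmt1 and Suz12 (adjusted p = 0.146 and 0.0533). Of 22 lysosome and autophagy genes, 8 were higher and none lower, with a summed level of 2467 to 2608 CPM against 1833 to 1985 CPM. Ctsb, the protease cathepsin B, rose from 190.2, 232 and 164 to 356, 385 and 332 CPM (log2 fold change 0.87, SE 0.13, adjusted p = 0.000617), Hexa, a lysosomal hexosaminidase gene, rose from 91.8, 101 and 78.5 to 143, 146 and 147 CPM (log2 fold change 0.68, SE 0.12, adjusted p = 0.00191), and the autophagosome genes Gabarapl1 and Map1lc3b had log2 fold changes of 0.71 and 0.48 (adjusted p = 0.00167 and 0.00317). Lamp1 did not pass the test (log2 fold change -0.26). The 12-library fit called 1 member and none of the 4 named (adjusted p = 0.0772 to 0.328), and 5 were called when genes that overlap another were left out.

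**Figure D5:**
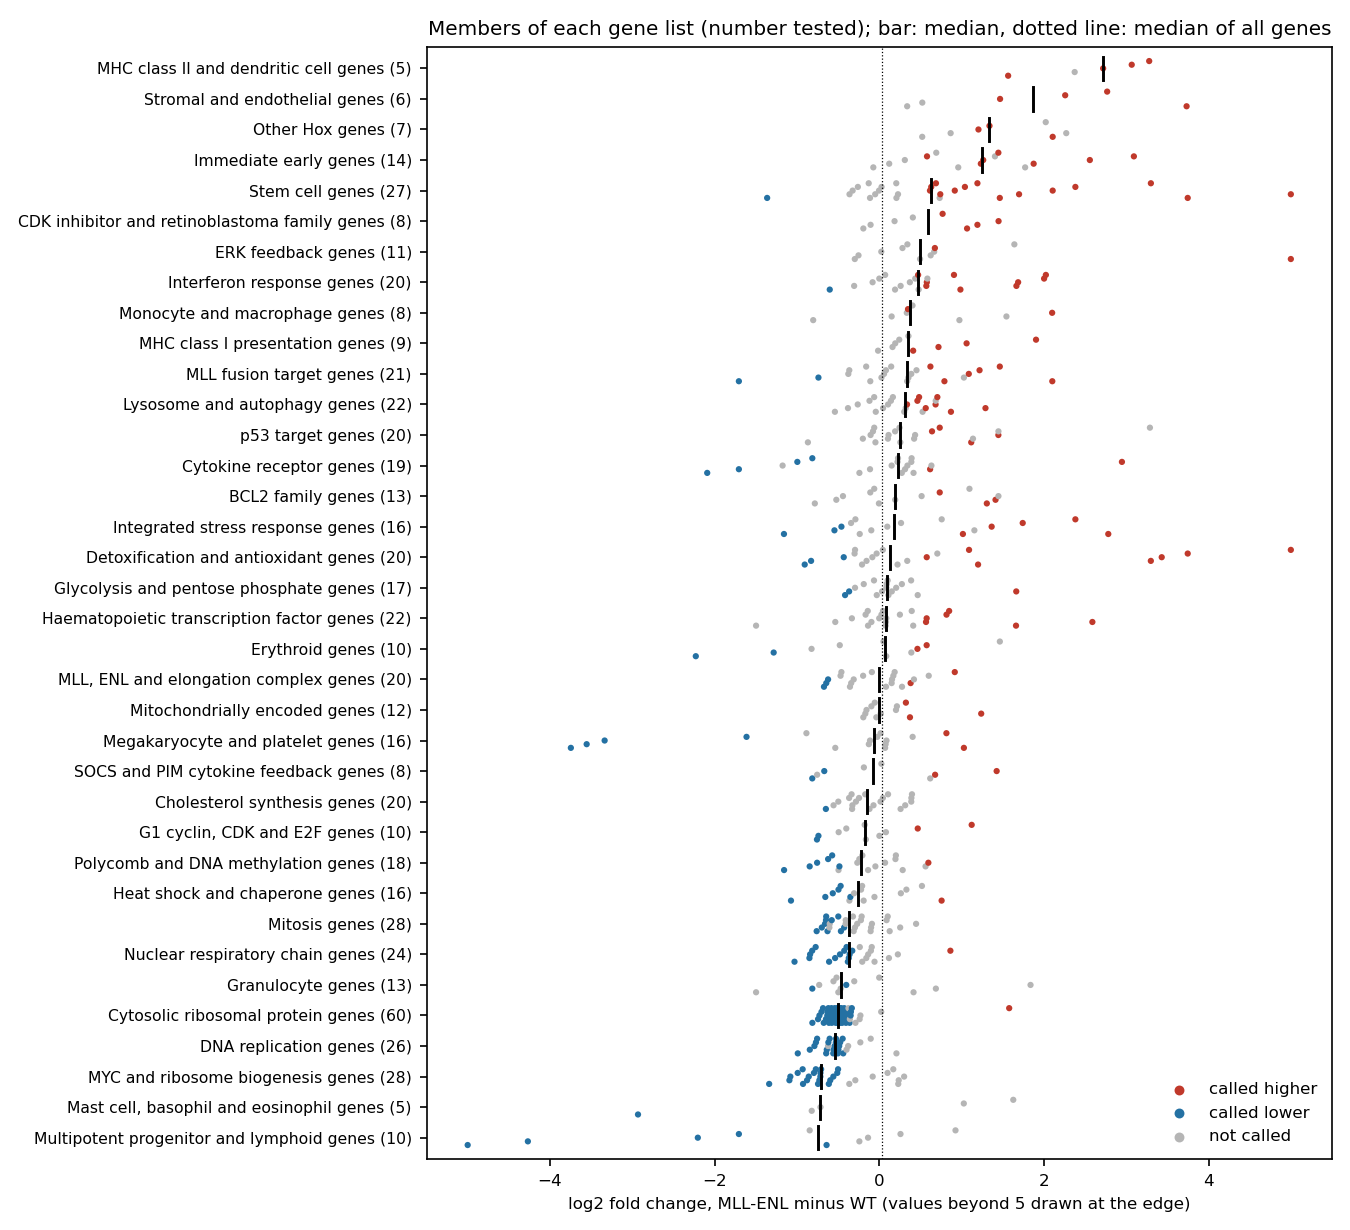
Log2 fold change (MLL-ENL minus WT) of every tested member of the 36 gene lists with at least 5 tested members, ordered by the list's median (black bar), with genes called higher in red, lower in blue and the rest in grey. The dotted line is the median of all 14183 genes, 0.038. Of 60 cytosolic ribosomal protein genes, with a median of -0.50, 53 are called lower, and Rpl13, the 1 called higher, lies at 1.58.

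The largest single changes fell outside these lists for the most part. Cyp26b1, which breaks down retinoic acid, had no counts in the WT libraries and 160, 145 and 121 counts in the MLL-ENL libraries, at least 31.3-fold more than the level of 3 counts per library (adjusted p = 7.58e-05). The surface protein gene Tm4sf1 rose from 0.0692, 0.112 and 0.384 to 21.5, 12.2 and 14.3 CPM, and Wwtr1, which encodes the Hippo pathway coactivator TAZ, rose from 0, 0.281 and 0 to 9.06, 3.05 and 6.1 CPM. Mab21l2 (from 0, 0.506 and 0 to 9.46, 8.19 and 8.64 CPM), Podnl1 (from 1.04, 0.0562 and 0.0768 to 8.43, 6.14 and 3.3 CPM), Kifc3 (from 0.484, 0.337 and 0.231 to 7.55, 5.74 and 2.99 CPM) and Pik3r6, a subunit of PI3 kinase gamma (from 0.623, 0.393 and 0 to 5.25, 6.79 and 4.59 CPM), were likewise near 0 in WT. Fbp1, an enzyme of gluconeogenesis, was present in both groups and rose from 6.85, 4.33 and 7.45 to 113, 102 and 107 CPM, or 17.3-fold (log2 fold change 4.12, SE 0.20, adjusted p = 9.2e-08). Runx1t1 (ETO), the fusion partner of RUNX1 in another leukaemia, rose from 1.31, 0.506 and 0.384 to 13, 11.3 and 12.8 CPM (log2 fold change 4.06, SE 0.45, adjusted p = 8.97e-05).

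Among the largest decreases, Plac8, a gene of myeloid and multipotent progenitors, had 553, 477 and 676 CPM in the WT libraries and 75.5, 68.4 and 94.3 CPM in the MLL-ENL libraries (log2 fold change -2.84, SE 0.15, adjusted p = 2.23e-07). Ctse, the protease cathepsin E, fell from 109.7, 115 and 62.6 to 8.79, 11.8 and 6.73 CPM (log2 fold change -3.4, SE 0.26, adjusted p = 3.77e-06), and Dlk1, an imprinted gene of the Notch ligand family, fell from 12, 9.72 and 10.5 to 0.994, 1.1 and 0.49 CPM (log2 fold change -3.63, SE 0.42, adjusted p = 0.000105). Hist1h1b, a linker histone gene of S phase, fell from 76.6, 53.2 and 77.8 to 4.57, 7.29 and 12.4 CPM (log2 fold change -3.1, SE 0.30, adjusted p = 3.5e-05), although its reads can be shared with other histone genes. Tespa1, a signalling protein of the T cell receptor, fell from 21, 22.4 and 6.76 to 2.35, 1.9 and 2.05 CPM (log2 fold change -2.99, SE 0.42, adjusted p = 0.000527), with WT replicate 3 well below the other WT libraries. Gm10800, a predicted gene, had 6.3, 1.12 and 17.9 CPM in the WT libraries and 0.278, 0.599 and 0.134 CPM in the MLL-ENL libraries, and its sequence may be repeated elsewhere in the genome, so this value is uncertain. Every gene of this and the preceding paragraph kept its call in each of the 16 alternatives that tested it.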

How the data were processed

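The deposited tables give, per the file headers, a raw read count and an RPKM value for each exon, intron and spliced transcript. The counts were deposited without normalization. The RPKM values, reads scaled by length and library size by the authors, were used only to check the library sizes. TopHat2 2.0.8, Bowtie2 2.1.0, HTSeq and edgeR are named, without a role or order, per the submitters' processing notes, and the genome build was not given in the sources used here.

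Of 93615 transcripts, 95.7% matched GENCODE M21 (GRCm38) by identifier and 85.9% of these had identical exons. Overlapping transcripts repeat the same reads, so each gene's count was summed over exons that do not overlap each other, chosen to cover as many bases as possible, for 37530 genes. Exons of transcripts assigned to no gene held 1.63% to 1.80% of a library's counts. The chosen sets covered 99.4% of the genes' exon bases, and the counts of exons outside them were not measured. Counting took no account of strand: all 1808 exons lying within an intron of the other strand had counts no higher than that intron. Overlapping and antisense genes therefore cannot be told apart. This touches 3884 genes with an overlap of 10% or more of exon bases, among those named Hoxa7, Hoxa3, Sox4, Selp, Prtn3, Mpo, Pim1, Ccna2, Ccnd1, Ccne2, Cdk4, Rb1, Bak1, Tap2 and Ctsb.

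The 6 HSC libraries were fitted alone with edgeR 4.0.16 in R 4.3.3: TMM scaling, filterByExpr (minimum count 10, minimum total 15, 14183 genes left), robust quasi-likelihood dispersions, a two-sided test and Benjamini-Hochberg adjustment over all genes tested, with a threshold of 0.05. SE was derived by dividing the size of the log2 fold change by the root of its F statistic. Levels are CPM after TMM scaling, and folds are ratios of group means. DESeq2 1.42.0 and limma 3.58.1 were run as alternatives. The edgeR script was tested on simulated data. A count of 3 in a library was taken as the floor for a group without counts, which covers counting error only, because PCR copies of a molecule were counted without molecular identifiers.

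The comparison, the gene lists and their members were chosen with earlier results of these data known. The naming rule took the partner genes and gate antigens, all MLL fusion targets, the 10 largest increases and 10 largest decreases among called protein-coding genes with at least 5 CPM in the higher group, up to 4 called members per list and direction with the smallest p, and the most abundant marker of other cell types. Not every gene it gave is printed, and some are not reported here. Motifs were searched on both strands in the 250 bases before the RefSeq gene starts (GRCm38.p6). Lists are described by counts and medians, with no list test. The 6 libraries of the precursor population were used only for the alternative fit of all 12.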

Additional observations from a re-analysis of the deposited data

How the results depend on the processing

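Of the 2507 calls, the fit of all 12 libraries kept fewest: it called 645 genes (500 higher and 145 lower, 77.5% of them higher), 587 of them among the 2507 and none in the opposite direction. With library size alone the median log2 fold change of all genes moved by 0.18, and 1979 genes were higher and 652 lower (75.2% higher, against 50.9% with TMM). Leaving out 1 library gave 1410 to 2559 calls, 727 to 1360 higher and 680 to 1218 lower. DESeq2 (1513 higher and 1608 lower), limma (1380 and 1239), median-of-ratios scaling (1209 and 1321), no filter (1456 and 1201), all distinct exon intervals (1201 and 1142), leaving out overlapping genes (1106 and 1034) and scaling within 5 classes of GC content (1251 and 1258), the last chosen after seeing the data, stayed within 1.5 times. Same-numbered libraries of the 2 groups did not deviate together (correlations -0.012, 0.00061 and 0.0094), and 1 of 6 libraries correlated best with its own number. The fit with a replicate block called 1131 higher and 1063 lower. Of 159 named genes that were called, 70 kept their call in each of the 16 alternatives that tested them. A further 50 lost it only in the 12-library fit, and 39 lost it when some 1 library was left out. Genes that an alternative did not test, such as overlapping genes where these were left out, count here as keeping their call in it. The block ended 6 of these calls, and none of the 159 changed direction. Of 20 lists of 5 or more tested genes with no edgeR call in one direction, 5 had 1 or 2 genes in it at an unadjusted p under 0.05, 3 had 1 or 2 DESeq2 calls and 1 had 1 limma call. A group without counts allows a level of up to 0.202 CPM in WT and 0.134 CPM with MLL-ENL, so differences of genes below that were not detectable at this depth.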
